A study of Danio rerio with 6 samples.

Results

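The miR-19 family was read on a microRNA (miRNA) array in adult zebrafish hearts without injury and in hearts 6 hours after amputation of part of the ventricle. Its members were taken as every array probe named miR-19a, miR-19b, miR-19c or miR-19d, with or without the star that marks the other arm of the hairpin. This gave 6 of the 218 zebrafish miRNA probes: dre-miR-19a, dre-miR-19a*, dre-miR-19b, dre-miR-19b*, dre-miR-19c and dre-miR-19d, where dre stands for Danio rerio and is left out from here on. There were 3 uninjured samples (0 hours) and 3 regenerating samples (6 hours), each a pool of hearts of the Ekkwill (EK) strain, and the series design calls the replicates biological. The fish carried no transgene or mutation named in the labels, amputation was done with scissors under MS222 anaesthesia, and how many hearts made up a pool is not stated in these sources. RNA of each sample was stained with 1 dye, Cy5 in uninjured replicate 2 and regenerating replicate 3 and Cy3 in the other 4. In 1 alternative fit uninjured replicate 2 and regenerating replicate 1 were taken to share an array.

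A miRNA guides the silencing complex to messenger RNAs that pair with its seed, bases 2 to 8 from the 5′ end. The miR-19 miRNAs are made from the miR-17-92 cluster and its relatives, in which several hairpins are cut from a common transcript. In mammals miR-19 is the member most tied to the oncogenic action of that cluster, and miR-19a and miR-19b can drive proliferation of heart muscle cells in mice.

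The target sequences deposited with the array are shown 5′ to 3′ to show the seed that the family shares and the few bases at which its members differ. Capitals mark the seed, and the star arms are given in lower case.
miR-19a: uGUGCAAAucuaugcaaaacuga
miR-19b: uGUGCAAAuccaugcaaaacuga
miR-19c: uGUGCAAAuccaugcaaaacucg
miR-19d: uGUGCAAAcccaugcaaaacuga
miR-19a*: cuaguuuugcauaguugcacua
miR-19b*: aguuuugcugguuugcauucag

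The seed was identical in miR-19a, miR-19b, miR-19c and miR-19d, and these 4 were the only probes of the 218 that carried it. Counted from the 5′ end and with the base of miR-19b first, miR-19a differed by C11U, miR-19d by U9C and miR-19c by G22C and A23G. No target outside the family lay nearer than an edit distance of 9 from any member. In the GRCz12tu annotation the genes of miR-19a and miR-19b lie beside those of miR-17a, miR-18a, miR-20a and miR-92a, and the gene of miR-19c lies beside those of miR-363, miR-20b and miR-18c. The gene of miR-19d lies near those of miR-25 and miR-93, inside the span of mcm7, which encodes a subunit of the replicative DNA helicase. The 4 miRNAs thus come from 3 gene clusters.

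Regenerating replicate 1 stood apart from the other regenerating samples in several measures. Over the 138 tested probes, normalized levels correlated at r of 0.989 to 0.996 among uninjured, 0.977 to 0.99 among regenerating and 0.964 to 0.98 between samples of different groups. The heart label was met by its defining miRNAs: miR-1, miR-133a, miR-133b and miR-499 were detected in all 6 samples, while of the brain miRNAs miR-9 and miR-124 were detected in 1 sample each and miR-128 in all 6. Detection required a signal over local background of more than 3 standard deviations (SDs) of the empty spots on that array. That limit was passed by 110 probes in regenerating replicate 2 and by 217 of 218 in regenerating replicate 1, so detection in the latter says little. The mean miRNA signal over that of added calibration sequences was 1.35 to 1.66 in the uninjured samples and 1.36, 0.663 and 0.508 in regenerating replicates 1, 2 and 3.

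In the regenerating hearts miR-19b and miR-19c read lower than in uninjured hearts, by 1.51-fold and 1.61-fold, and for both all 3 regenerating samples lay below all 3 uninjured ones. miR-19d, from the cluster inside mcm7, had overlapping groups and a log2 change of -0.16. miR-19a was close to background in both groups, and neither star arm was above the detection limit in any uninjured sample. Across all 138 tested probes 3.62% passed an adjusted p of 0.05 in limma (2.17% with regenerating lower), and 0 of the 4 tested miR-19 probes did; 2 of the 4, miR-19b and miR-19c, had an unadjusted p below 0.05, both lower, beside 20.3% of all tested probes in either direction and 11.6% lower. The targets of miR-19b and miR-19c differ only at the last 2 bases, and whether each probe also reads the other's target was not tested. Groups that did not overlap with regenerating lower were found for 14.5% of all tested probes, and groups that did not overlap in either direction for 23.9%. Of the 5 probes past the adjusted threshold 2 were higher and 3 lower, a split that became 9 and 0 with scaling by the 75th percentile of all probes and 3 and 26 with median scaling.

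miR-19b, the better known of the family in proliferation, had normalized log2 intensities of 9.90, 9.90 and 9.61 in the uninjured samples, listed here and below by replicate number, and of 9.20, 9.10 and 9.33 in the regenerating ones. The lowest uninjured sample was thus above the highest regenerating one. Means were 9.80 ± 0.17 and 9.21 ± 0.12 (SD, n = 3 each). The fitted log2 change was -0.60 (SE 0.14, 95% interval -0.94 to -0.26, limma adjusted p = 0.106). In an alternative fit where the variance could follow the level (trend), its SE was 0.36 (limma adjusted p = 0.378). Before normalization the signal over background was 934, 1115 and 994 units in the uninjured samples and 647, 457 and 280.0 units in the regenerating ones. The order of the groups was the same on that scale, although it also carries the lower overall miRNA signal of regenerating replicates 2 and 3. The 12 spots of the probe varied by 6.75% to 14.1% (coefficient of variation) within an array.

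miR-19c, whose gene lies with those of miR-20b and miR-18c, read 9.02, 9.10 and 8.57 in uninjured replicates 1, 2 and 3. In the regenerating replicates it read 8.25, 8.20 and 8.16, so that these 3 samples were within 0.1 of each other and below every uninjured one. Quantile normalization sets such values by rank on the array, and 119, 118 and 117 probes read lower than miR-19c there. Means were 8.90 ± 0.28 and 8.20 ± 0.047 (SD, n = 3 each). Fitted, the change came to -0.69 on the log2 scale (SE 0.17, 95% interval -1.12 to -0.26, limma adjusted p = 0.115). With trend the SE for miR-19c was 0.32 (limma adjusted p = 0.252). Its signal over background before normalization was 381, 459 and 442 units in the uninjured and 337, 233 and 111 units in the regenerating samples. Without regenerating replicate 1 both passed in limma, miR-19b at -0.59 (adjusted p = 0.0425) and miR-19c at -0.79 (adjusted p = 0.0461), in a fit where 29 of 138 probes passed. Without any other single sample neither passed (limma adjusted p 0.0899 to 0.371). Among the tested probes miR-19c had the 9th and miR-19b the 14th lowest log2 change.

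miR-19d read 9.74, 9.87 and 9.52 in the uninjured and 9.61, 9.52 and 9.52 in the regenerating replicates. The third uninjured sample equalled the 2 lower regenerating ones, so the groups overlapped. Quantile normalization gives equal ranks equal values, and 133 probes read lower than miR-19d in each of these samples. Its change, -0.16 on the log2 scale (SE 0.14, limma adjusted p = 0.581), had a 95% interval from -0.51 to 0.19. Signal over background was 799, 1088 and 982 units in the uninjured and 804, 509 and 325 units in the regenerating samples.

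miR-19a shares the transcript of miR-19b but gave little signal in these hearts. Its signal over background was 15.4, 15.9 and 69.9 units in the uninjured and 49.8, 103 and 6.77 units in the regenerating samples, and it was detected in 2 uninjured samples and 1 regenerating sample. The latter was replicate 1, where 217 of the 218 probes passed the limit and miR-19a* also read 49.8 units. Only with that detection did miR-19a reach the 3 samples required for testing. Normalized levels of miR-19a were 6.72, 6.92 and 7.14 against 6.66, 6.85 and 6.70, with overlapping groups and a change of -0.19 (SE 0.16, limma adjusted p = 0.576). With plain background subtraction the change was -0.89 (SE 0.53). Whether the probes of the family capture each other's targets was not tested.

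The star arms, made from the other side of the hairpins and usually degraded, were not tested. In the uninjured samples miR-19a* read 11.3, 2.66 and 15.02 units over background and miR-19b* 10.2, 3.54 and 17.6 units, all under the detection limit. In regenerating replicates 2 and 3 they read 53.1 and -0.68 units (miR-19a*) and 38.3 and -0.91 units (miR-19b*), again under the limit. No fold is given for them.

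**Figure D1:**
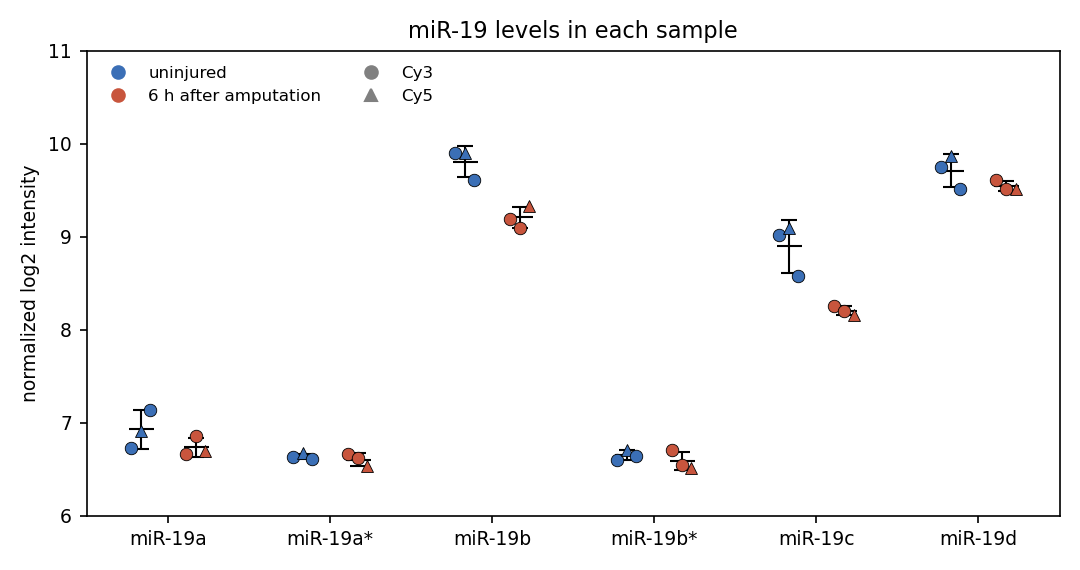
Normalized log2 intensity (vertical axis) of the 6 miR-19 probes in each sample, blue for uninjured hearts and red for hearts 6 hours after amputation, circles for Cy3 and triangles for Cy5; horizontal bars are means and error bars SDs of 3 samples. The regenerating samples of miR-19b (9.10 to 9.33) and miR-19c (8.16 to 8.25) lie below all uninjured ones, while miR-19a, miR-19d and the star arms overlap.

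On the same array, miR-19b read lower relative to miR-19d in the regenerating hearts. The ratio of miR-19b to miR-19d signal over background was 1.17, 1.02 and 1.01 in the uninjured and 0.805, 0.899 and 0.863 in the regenerating samples. Every uninjured ratio was above every regenerating one, and such a ratio does not change when an array is scaled by 1 factor. The probes may give unequal signal per molecule, so only the shift between groups is read. On the log2 scale the difference between groups was -0.32 without normalization, -0.44 with quantile normalization and -0.34 with the authors' processed values. The exact two-sided permutation test gave p = 0.1 in each case, the smallest that 3 samples against 3 allow. With quantile normalization this became 0.3 after adjustment over the 6 pairs of tested members. No adjustment over pairs was made on the other scales.

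For miR-19c against miR-19d the groups separated under some processing and not under other. With quantile normalization the log2 difference was -0.73, -0.77 and -0.94 in the uninjured and -1.36, -1.31 and -1.36 in the regenerating samples, a shift of -0.53 between groups that did not overlap (exact permutation p = 0.1, adjusted 0.3). Without normalization the same difference was -1.07, -1.25 and -1.15 against -1.25, -1.13 and -1.54, which overlapped, with a shift of -0.15 (exact permutation p = 0.4). With plain background subtraction before quantile normalization, chosen for pairs after the data were examined, the shift was -0.72 (exact permutation p = 0.1). With the authors' processed values it was -0.49 (exact permutation p = 0.1). With the 10th percentile of miRNA probes subtracted and no normalization, a step added after the data were examined, it was -0.26 (exact permutation p = 0.1). The cause of these differences was not tested.

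miR-19b and miR-19c were also set against each other. Their log2 difference was 0.88, 0.80 and 1.04 in the uninjured and 0.94, 0.89 and 1.17 in the regenerating samples, with a shift of 0.093 (exact permutation p = 0.5, adjusted 0.6), and the shift was -0.17 without normalization. Groups overlapped in both. Whether these probes read each other's target was not tested. No comparison is drawn from the 3 pairs with miR-19a, which was detected in only 3 of the 6 samples: their shifts changed with the processing, from -0.22 to 1.56 against miR-19b.

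**Figure D2:**
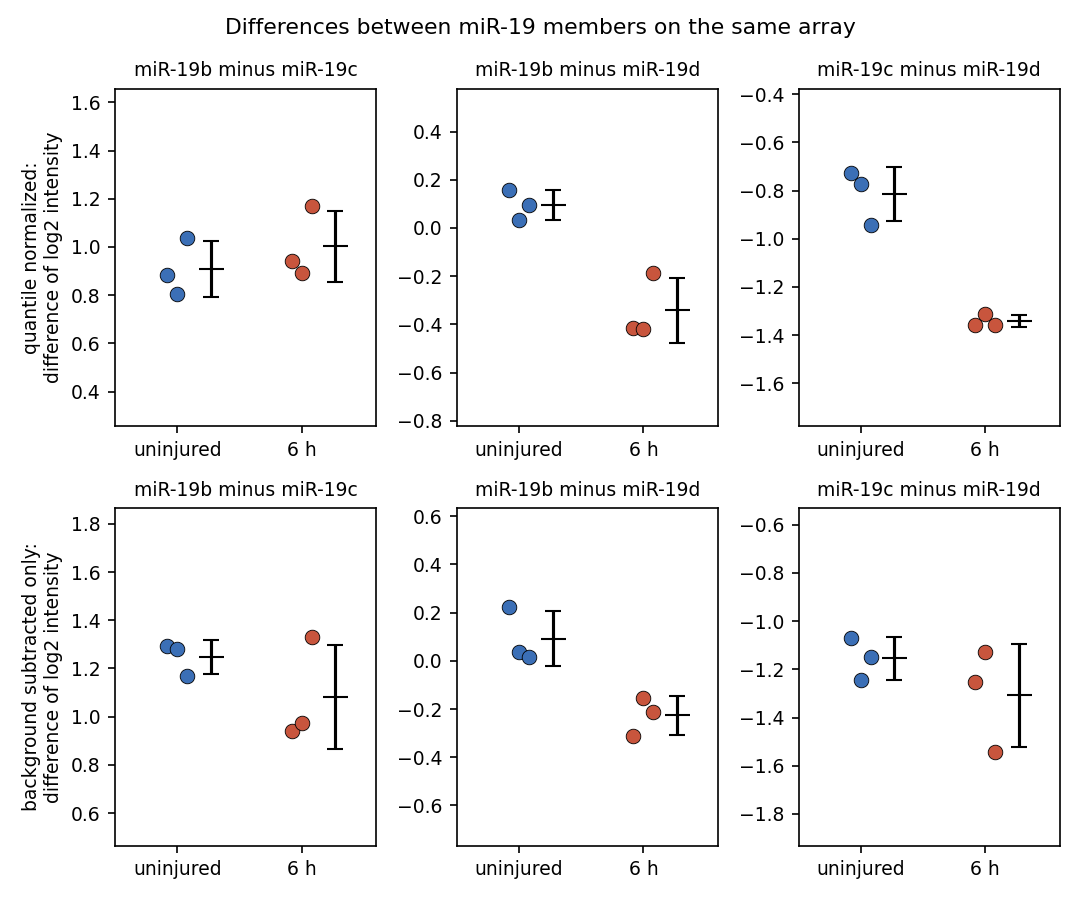
Difference of log2 intensity between 2 miR-19 probes on the same array (vertical axis) in uninjured hearts and 6 hours after amputation, with quantile normalization in the upper row and background subtraction alone in the lower row; points are samples, and bars are mean and SD of 3. The groups for miR-19b minus miR-19d separate in both rows, those for miR-19c minus miR-19d only in the upper row, and those for miR-19b minus miR-19c overlap in both.

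Probes named for other miRNAs of the miR-17-92 clusters and their relatives lay on both sides of 0. They were picked by name. Of them miR-92b, miR-18b and miR-18b* are not among the annotated neighbours of the miR-19 genes. Of these 14 further probes 11 were tested and 0 passed in limma, beside 3.62% of all tested probes. Only miR-25 had an unadjusted limma p below 0.05, beside 20.3% of all tested probes. Of the 11, 6 had a log2 change below 0 and 5 above. Their median was -0.044, beside -0.052 over all 138 tested probes. miR-18b, miR-18b* and miR-363 were too dim to be tested. The groups did not overlap for miR-17a* (lower) and miR-25 (higher), where 23.9% of all tested probes had such groups in either direction.

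The 4 neighbours of miR-19b outside the family had log2 changes from -0.21 to 0.055. miR-17a and miR-20a, which share a seed that in mammals represses the cell cycle inhibitor p21, had log2 changes of 0.055 (SE 0.14) and -0.058 (SE 0.12). miR-18a stood at -0.21 (SE 0.15), and miR-92a, which restrains vessel growth in mice, at -0.18 (SE 0.13). None of these 4 passed (limma adjusted p between 0.519 and 0.843). The level of miR-19b less the mean of its 4 neighbours, in log2 units, was -1.48, -1.55 and -1.83 in the uninjured and -2.09, -2.26 and -2.02 in the regenerating samples. The groups did not overlap, with a shift of -0.50, and they did not overlap either without normalization (-0.79) or with the authors' processed values (-0.53). Of the 4 neighbours miR-18a was dim, with normalized means of 7.07 in uninjured and 6.87 in regenerating samples and detection in 5. The reference thus lies partly near background. The other neighbours were brighter than miR-19b: uninjured means were 12.5 (miR-17a), 12.5 (miR-20a) and 13.7 (miR-92a) against 9.80. Their shares of G and C bases were 45.5%, 39.1% and 54.5%, against 39.1% for miR-19b. The part of brightness or base composition in the shift was not tested. How many other probes separate from such a reference was not counted. The annotation numbers the neighbouring genes of miR-17a and miR-92a as mir-17a-1 and mir-92a-1. Whether these probes also read products of other gene copies was not tested. The comparison of miR-19b with its neighbours was chosen after the data were examined and has no test.

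For miR-19c the 2 tested neighbours miR-20b and miR-18c stood at -0.044 (SE 0.16) and 0.22 (SE 0.16). The level of miR-19c less their mean ran from -0.84 to -0.14 in the uninjured and from -1.35 to -0.91 in the regenerating samples, a shift of -0.78. The groups did not overlap there or without normalization (-1.71), but they did with the authors' processed values (-1.01). miR-18c was detected in only 3 of the 6 samples, so this reference lies partly near background. Beside miR-19d, miR-25 stood at 0.50 (SE 0.14, limma adjusted p = 0.13), the largest size of change among the 11, and miR-93 at 0.032 (SE 0.30). The next largest among the 11 were those of miR-18c and miR-17a*, the latter at -0.21 (SE 0.14). The level of miR-19d less the mean of miR-25 and miR-93 shifted by -0.43, by -0.55 without normalization and by -0.55 with the authors' processed values, with overlapping groups in each; the last is close to the -0.53 of miR-19b.

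**Figure D3:**
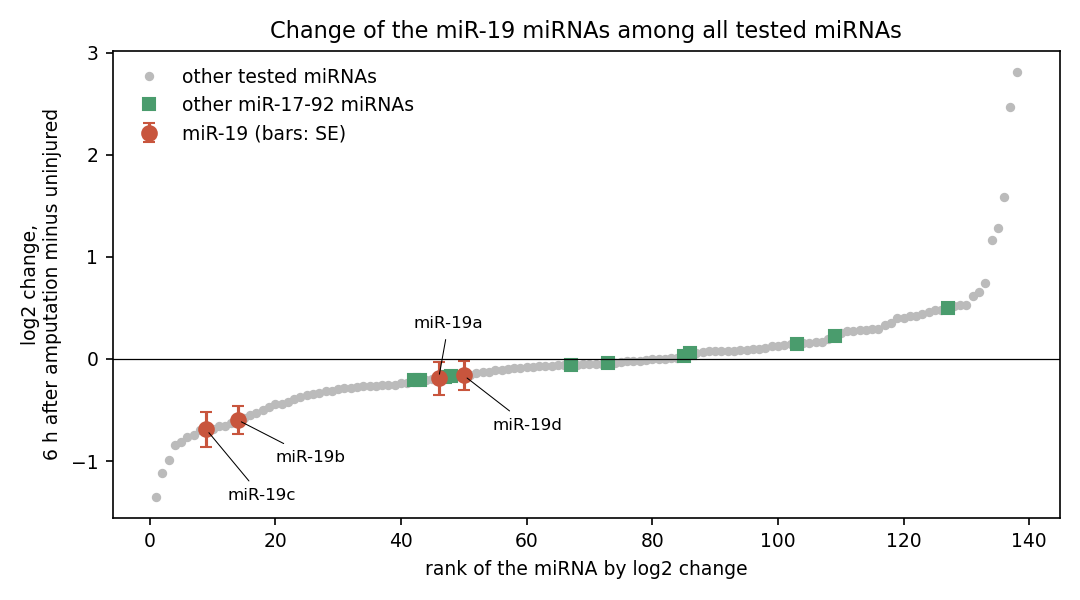
Log2 change from uninjured hearts to 6 hours after amputation (vertical axis) of the 138 tested miRNAs in order of size (horizontal axis), with the 4 tested miR-19 probes in red with their SE and the 11 other miR-17-92 probes as green squares. miR-19c and miR-19b stand 9th and 14th from the low end, away from the green squares, which run from -0.21 to 0.50.

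Outside the family, 5 probes were picked for the pattern over the 6 samples most like that of miR-19b. By the root-mean-square difference of mean-centred normalized log2 levels these were miR-31 (0.0879), miR-29a (0.0982), miR-200c (0.115), miR-200b (0.166) and miR-152 (0.202), where the median over all tested probes outside the family was 0.361. miR-19c was at 0.119, nearer than miR-200b and miR-152, and miR-19d at 0.234 by the same measure. All 5 had lower regenerating samples without overlap, a direction that their choice largely fixed, with log2 changes of -0.63, -0.66, -0.68, -0.81 and -0.77, and miR-29a and miR-200b passed in limma (adjusted p = 0.0494 and 0.0352). Both miR-200 probes are among the epithelial markers: the 3 tested of 4 such markers stood between -0.81 and -0.42, each with groups that did not overlap. miR-203a, the fourth, was detected in 1 sample. Related probes outside the marker list differed: miR-203b stood at 0.46, with regenerating samples above all uninjured ones. miR-141 and miR-429 stood at -0.28 and -0.25 with overlapping groups. The part of the epithelial markers in the miR-19 result was not tested. In pooled whole tissue, fewer cells of a type and less RNA per cell cannot be told apart.

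The markers of other cell types had other changes. The leukocyte marker miR-223 stood at 1.16 (SE 0.34) with regenerating samples above all uninjured ones, miR-150 at -0.038, the endothelial miR-126 at 0.10 and the red cell miR-451 at 0.067. The 4 heart muscle markers ran from -0.074 to 0.28.

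Changes on this array also went with base composition, with a Pearson r of 0.48 between log2 change and GC content over the tested probes. Tested probes whose share of G and C bases (GC) lay within that of the tested miR-19 targets, 34.8% to 43.5%, numbered 54, had a median log2 change of -0.16, and 12 of them had regenerating samples below all uninjured ones. Among all 138 tested probes 20 (14.5%) did. The 54 include the tested miR-19 probes themselves. After a correction for the trend with GC, miR-19b stood at -0.38 (SE 0.15, limma adjusted p = 0.196), miR-19c at -0.62 (SE 0.18, limma adjusted p = 0.164) and miR-19d at -0.088 (SE 0.15). miR-19c and miR-19d have the same GC content of 43.5%, while miR-19b has 39.1%. The part of GC in the differences between members was not tested.

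The size of the changes moved with the scaling of the arrays. Scaling by the 75th percentile of all probes moved the median of all tested probes to 0.46, and miR-19b then stood at -0.23, miR-19c at 0.10 and miR-19d at 0.047. Scaling by the median or by calibration sequences moved it to -0.79 and -0.73, where 29 and 22 of 138 probes passed in limma. miR-19b then stood at -1.48 and -1.42 (limma adjusted p = 0.0412 and 0.0389). With median scaling miR-19c (-1.15) and miR-19d (-1.21) passed too (limma adjusted p = 0.0451 each). Less the median of all tested probes, miR-19b was at -0.69, miR-19c at -0.36 and miR-19d at -0.42 under each of these, since they scale an array by 1 factor. On that measure miR-19d was thus lower than miR-19c, unlike with quantile normalization. 

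In the authors' processed values, which come from the same 6 samples, the same 2 members separated. The share of all tested probes with separated groups was not counted on that scale. With quantile normalization 14.5% had regenerating samples below all uninjured ones. There miR-19b read 683, 719 and 544 units in the uninjured and 366, 477 and 404 units in the regenerating samples, a ratio of means of 1.56. In the same table miR-19c read 335, 335 and 250 against 176, 170 and 182 units, a ratio of 1.74, and the groups of both did not overlap. miR-19d read 586, 708 and 539 against 473, 542 and 471 units there, and its groups overlapped. The log2 changes with these values were -0.64 for miR-19b (SE 0.21, limma adjusted p = 0.197), -0.79 for miR-19c (SE 0.19, limma adjusted p = 0.0817) and -0.30 for miR-19d.

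**Figure D4:**
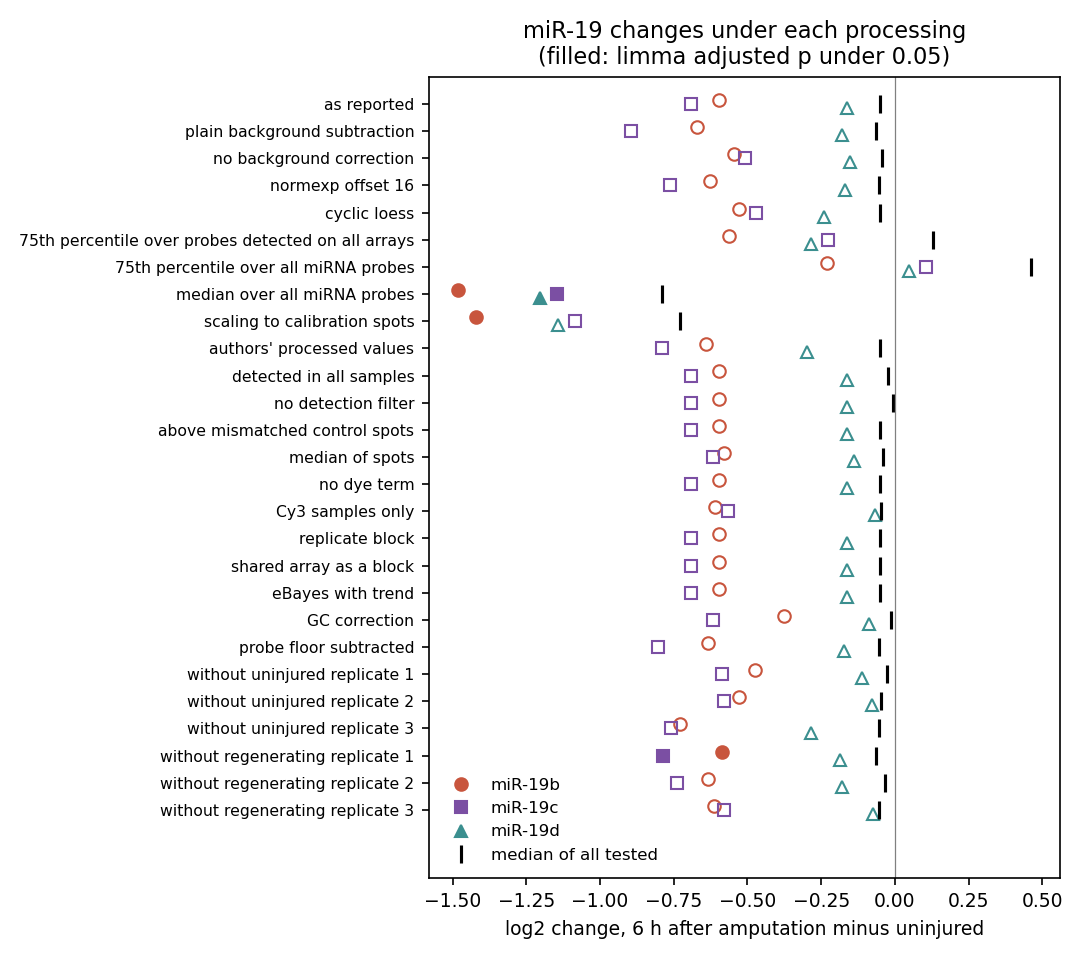
Log2 change from uninjured hearts to 6 hours after amputation (horizontal axis) of miR-19b, miR-19c and miR-19d under each processing (rows), with filled symbols for a limma adjusted p under 0.05 and black bars for the median of all tested probes. miR-19b lies below that median in every row, and miR-19d lies nearer to it than miR-19b does. Where each array is scaled by a single factor, miR-19c lies nearer to it than miR-19d does.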

How the data were processed

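Per the file headers, the deposited spot files hold mean intensities, linear and without background subtraction. Per the labels' protocols, a service provider isolated small RNA below 300 nucleotides, extended it with a poly(A) tail and a tag, and stained the hybridised arrays with either Cy3 or Cy5. A second deposited table holds the authors' processed intensities, 1 per probe, linear; their background subtraction and scaling are not stated in these sources, and its columns had medians of 68.9 to 91.9 and correlated on the log2 scale with the values computed here at r of 0.973 to 0.985.

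Local background was the median of the 16 nearest of 1060 empty spots. Intensities were corrected in limma 3.58.1 under R 4.3.3 (normexp, offset 50), converted to log2, averaged over 12 spots of a probe and quantile normalized over the 218 miRNA probes. The 138 probes detected in at least 3 of 6 samples were fitted with lmFit and eBayes with dye as a covariate, with Benjamini-Hochberg adjustment over all 138. Differences between members on an array were tested by exact permutation. Probes named in the text are the members, miR-17a, miR-18a, miR-20a and miR-92a, the 3 other cluster probes with the largest changes, the 5 most like miR-19b, the cluster neighbours and markers. Named in addition are miR-141, miR-429 and miR-203b, relatives of the epithelial markers, and miR-92b, miR-18b and miR-18b*, cluster relatives by name. The members and lists were chosen with earlier results of these data known. The fit was tested on simulated spots. Alternatives covered background, normalization, detection, dye, blocks, GC and single samples. The number of samples limits the precision.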

Additional observations from a re-analysis of the deposited data

Results flagged for a closer look

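In regenerating replicate 1 the star arms miR-19a* and miR-19b* exceeded the detection limit, at 4.01 and 4.29 SDs of the empty spots, where the highest uninjured readings were 1.98 and 1.79 SDs. On that array 217 of the 218 probes exceeded the limit, and 45 and 58 probes read lower than these 2.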

How the results depend on the processing

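miR-19b stayed below 0 in all 26 alternatives (-1.48 to -0.23, limma adjusted p 0.0389 to 0.453) and passed with median scaling (-1.48), calibration scaling (-1.42) and without regenerating replicate 1. miR-19c was below 0 in 25, reaching -1.15 and passing with median scaling and 0.10 with the 75th percentile of all probes; miR-19d was -1.21 and past the threshold with the former and 0.047 with the latter. miR-19a was above 0 with the 75th percentile of detected (0.99) and of all probes (1.32), median scaling (0.070), calibration (0.13) and GC correction (0.18). Leaving out 1 sample gave -0.73 to -0.47 for miR-19b, -0.79 to -0.58 for miR-19c, -0.28 to -0.075 for miR-19d and -0.31 to -0.073 for miR-19a.

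The 5 probes past the threshold became 3 with plain subtraction, trend or GC correction, 9 with the 75th percentile of all probes or the shared array as a block, 29 with median scaling, 22 with calibration, 0 with Cy3 samples alone (18 at an unadjusted limma p under 0.05) and 0 to 29 without single samples: 1 without uninjured replicate 1, 0 without uninjured replicate 2 (19 unadjusted) or regenerating replicate 3 (18), 2 without regenerating replicate 2 and 29 without regenerating replicate 1. The split of 2 higher and 3 lower became 9 and 0 with the 75th percentile of all probes, 3 and 26 with median scaling, 2 and 20 with calibration and 3 and 0 with trend. Of the other miR-17-92 probes 3 passed with median scaling and 0 to 1 without single samples. The replicate block left 1 probe, with limma adjusted p of 0.170 for miR-19b and 0.151 for miR-19c. Deviations of same-numbered samples from their group means correlated at r of 0.14, -0.45 and 0.37. With 3 samples per group and the dye left in, these values cannot show whether the numbers pair the samples. With uninjured replicate 2 and regenerating replicate 1 taken to share an array and set as a block, limma adjusted p was 0.0863 for both miR-19b and miR-19c.

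miR-19a minus miR-19b was 0.41, 1.56 without normalization and -0.22 with plain subtraction before quantile normalization. miR-19a minus miR-19c was 0.50, and 1.39 without normalization. miR-19a minus miR-19d turned to 1.24 without normalization and ran from -0.15 to 0.18 without single samples. miR-19b minus miR-19c turned to -0.17 without normalization and -0.074 with the probe floor subtracted too. Subtracting the probe floor, and plain subtraction for pairs, were chosen after seeing the data. The cause of these differences was not tested.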
